A study of Mus musculus with 4 samples.

Results

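Conventional and mature dendritic cells were followed in single-cell RNA profiles of the lungs of aged mice given BPTES, a small molecule inhibitor of glutamine use, or its vehicle DMSO. All mice were male C57BL/6 and 19 months old, and treatment lasted 1 month. Each group had 2 libraries, and in each library 20000 CD45-negative and 9000 CD45-positive sorted cells had been combined. The labels do not say whether the libraries of a group came from separate mice, so p-values measure the spread between these libraries, which may be partly technical.

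Cells were chosen by their transcripts. A barcode with at least 500 genes, at least 1000 transcript counts (UMIs, each standing for 1 captured RNA molecule) and at most 10% mitochondrial UMIs was kept. A kept barcode was a member when it held at least 1 UMI of Flt3, at least 1 of Zbtb46 and at least 1 of Xcr1, Clec9a, Cd209a, Ccr7 or Fscn1, with no Cd3e and at most 1 Cd79a. The rule found 711 members among 68675 kept barcodes, 1.04% of them. There were 223 members in the BPTES 1 library, 214 in BPTES 2, 108 in DMSO 1 and 166 in DMSO 2.

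Conventional dendritic cells sample antigen in tissue, carry it to lymph nodes and show it to T cells. Their growth depends on the receptor Flt3, and Zbtb46 is a transcription factor that sets them apart from macrophages. Type 1 cells, which need Irf8 and Batf3, carry Xcr1 and Clec9a and are known for cross-presenting antigen on MHC class I. Type 2 cells, many of which need Irf4, carry Cd209a and Sirpa in the mouse and are known for priming CD4 T cells. Either type can mature, when it takes up the lymph node homing receptor Ccr7 and the actin-bundling protein Fscn1. Cells use glutamine as a fuel and as a source of nitrogen and glutathione.

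The 4 libraries held between 260346570 and 342107092 UMIs in 16440 to 21986 deposited barcodes. Members were deep cells: their median was 38449 UMIs in BPTES 1, 35147 in BPTES 2, 38556 in DMSO 1 and 35066 in DMSO 2, against medians of 14284 to 16184 over all kept barcodes. The members of a library summed to 4132865 to 9061991 UMIs. Of the 711 members, 68 held over 60000 UMIs, at 27, 23, 6 and 12 per library in the same order. Between 95.2% and 99.1% of the members of a library had a UMI of Ptprc, which encodes CD45. The members had 710 distinct barcodes, since 1 barcode occurred in both BPTES 1 and DMSO 2. No doublet caller was run. Instead, a member was counted as marked when it held at least 10 UMIs over the defining genes of 1 other lineage, such as macrophage complement genes, endothelial junction genes or surfactant genes. This marked 37 of 223 members in BPTES 1, 47 of 214 in BPTES 2, 11 of 108 in DMSO 1 and 40 of 166 in DMSO 2, and the values without them are given below for the results that turn on them.

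At the edge of the rule, 80 members held a single UMI of Flt3, 124 a single UMI of Zbtb46 and 35 a single UMI over the type genes. Just outside were 297 barcodes that lacked only Zbtb46, 92 that lacked a type gene and 148 that failed on Cd3e or Cd79a. A further 5326 barcodes lacked only Flt3, of which 716 had Ptprc. The background of the rule's genes differed. In the endothelial gate (barcodes with Cdh5 and Pecam1 and no Ptprc, at median depths of 12488 to 13643 UMIs), Flt3 was seen in 0.1% to 0.19% of barcodes. Zbtb46, which lung endothelium expresses, was seen in 55.7% to 65.6% of them, Fscn1 in 14% to 19.2% and Clec9a in 9.48% to 14.2%. Xcr1, at 0.142% to 0.228%, and Cd209a, at 0.0571% to 0.2%, were as rare there as Flt3. In B cells Ccr7 was present in 93.2% to 95.8% of barcodes, and Flt3 in 8.72% to 12.9%.

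Each member was placed in 1 set. Mature cells held both Ccr7 and Fscn1 and were taken first. Of the rest, type 1 cells held Xcr1 or Clec9a without Cd209a, type 2 cells held Cd209a without Xcr1 and Clec9a, and a set of its own held genes of both types. There were 307 type 1 cells (90, 82, 43 and 92 in BPTES 1, BPTES 2, DMSO 1 and DMSO 2), 180 type 2 cells (60, 53, 33 and 34), 128 cells with genes of both types (39, 49, 21 and 19) and 64 mature cells (26, 18, 8 and 12). The remaining 32 held only Ccr7 or only Fscn1 beside Flt3 and Zbtb46, and 6 of 8, 10 of 12, 2 of 3 and 6 of 9 of these were marked by genes of another lineage. They were kept in sums over all members, and the comparisons of sets below leave them out. Of the mature cells, 21 also held a type 1 gene and 6 a type 2 gene.

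The levels below are UMIs of a gene per 1000000 UMIs of the summed cells (CPM), in the order BPTES 1, BPTES 2, DMSO 1, DMSO 2 unless stated. They describe the sets and carry no test, because the rule chose the sets by their genes. Each gene is compared with itself between sets, not with other genes.

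Type 1 cells carried the regulators and machinery that mark this lineage. Irf8, their lineage factor, stood at 1163, 1037, 1081 and 983 CPM in type 1 cells and at 16.4 to 54.5 in type 2 cells. Cadm1, an adhesion molecule of these cells, stood at 634, 595, 714 and 592 CPM, against 3.22 to 21.3 in type 2 cells. The highest other set of each library held 119, 203, 140 and 113 CPM of Cadm1. Itgae, the CD103 integrin chain that marks type 1 cells near the lung epithelium, stood at 380, 373, 315 and 271 CPM, and at 49.2 to 104 in the set next in order, the cells with genes of both types. Tlr3, the receptor for double-stranded RNA, stood at 187, 147, 245 and 189 CPM and did not exceed 7.66 in type 2 cells. Irf8 and Tlr3 are set beside type 2 cells alone here. Their levels in the other sets are not given, and neither was among the leading genes of type 1 cells over the highest other set. Wdfy4, which cross-presentation requires, differed less: 1481 to 1663 CPM in type 1 cells and 456 to 939 in type 2 cells. Batf3 separated the sets little, at 80.5 to 103 CPM in type 1 cells, 40.9 to 59.6 in type 2 cells and 92.5 to 173 in mature cells. Among genes the rule did not use, the steepest steps from type 1 cells to the next set were those of A530099J19Rik (94.4 to 151 CPM against at most 24.4), Fam149a, the lysosomal enzyme Ppt1 (652 to 826 CPM against at most 203) and P3h2.

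Among the leading genes of type 2 cells were Mgl2, Il1b, Tnip3 and Ptgs2. Mgl2, a C-type lectin, stood at 1310, 618, 852 and 812 CPM in type 2 cells and did not exceed 214 in any other set. Il1b, the pro-inflammatory cytokine, stood at 3065, 3433, 3007 and 2533 CPM, above the 1087 to 1890 of the cells with genes of both types, the 541 to 1034 of type 1 cells and the 1513 to 1783 of classical monocytes (barcodes with Ly6c2, Ccr2 and F13a1). Tnip3, an inhibitor of NF-kappa-B signalling, followed the same order, at 1103 to 1514 CPM in type 2 cells and at most 648 elsewhere among the members. Ptgs2, the inducible prostaglandin synthase, stood at 192 to 258 CPM in type 2 cells and 3.18 to 25.2 in type 1 cells. The highest other set of each library held 155, 98.6, 81.6 and 103 CPM of it. Irf4 was at 115, 52.3, 56.4 and 85.2 CPM, a range that overlapped the 43.2 to 101 of the cells with genes of both types. Sirpa, at 171 to 261 CPM, was lower than the 462 to 488 of interstitial macrophages (C1qa, C1qb and Mrc1, without Marco). Csf1r and Cd14, monocyte and macrophage receptors, stood at 145 to 177 and 220 to 337 CPM in type 2 cells, against 456 to 545 and 1071 to 1494 in classical monocytes.

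Mature cells formed the most distinct set. Cacnb3, a calcium channel subunit, stood at 426, 478, 480 and 597 CPM in mature cells and at no more than 3.09 in type 1, type 2 and both-type cells. Apol7c, at 521, 462, 490 and 435 CPM, was at 0 in the other sets of all libraries except type 1 cells of BPTES 2, at 5.15. Relb, the NF-kappa-B subunit of maturation, stood at 756, 719, 855 and 1183 CPM, against 186 to 237 in type 2 cells. Ccl22, a chemokine that draws regulatory T cells, stood at 2587, 2247, 1620 and 2356 CPM, and Cd274, which encodes the inhibitory ligand PD-L1, at 636, 607, 565 and 550 CPM. Ccl5 ranged widely, at 2296, 4706, 4085 and 7128 CPM, and the NK cell list summed to 6.35, 5.8, 52.2 and 852 CPM in the same cells, so the DMSO 2 library was highest in both. The part of NK transcripts in that level was not tested. Flt3 was higher in mature cells (394, 400, 389 and 743 CPM) than in type 1 cells (208 to 264).

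Antigen presentation genes ordered the sets. H2-Ab1, an MHC class II chain, was highest in type 2 cells (9842, 7930, 9575 and 8780 CPM) and next in type 1 cells (8080, 6713, 8049 and 7028), with ranges that overlapped over the libraries, though type 2 cells were the higher within each. It stood at 4554 to 5753 CPM in cells with genes of both types, at 3054 to 4449 in mature cells and at 460 to 693 in classical monocytes. H2-K1, an MHC class I heavy chain, had another order: 1426 to 2499 CPM in mature cells, and 580 to 892 in the other sets. Reads of H2-K1, H2-D1 and their near copies can be shared, so the single class I genes are uncertain.

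**Figure D1:**
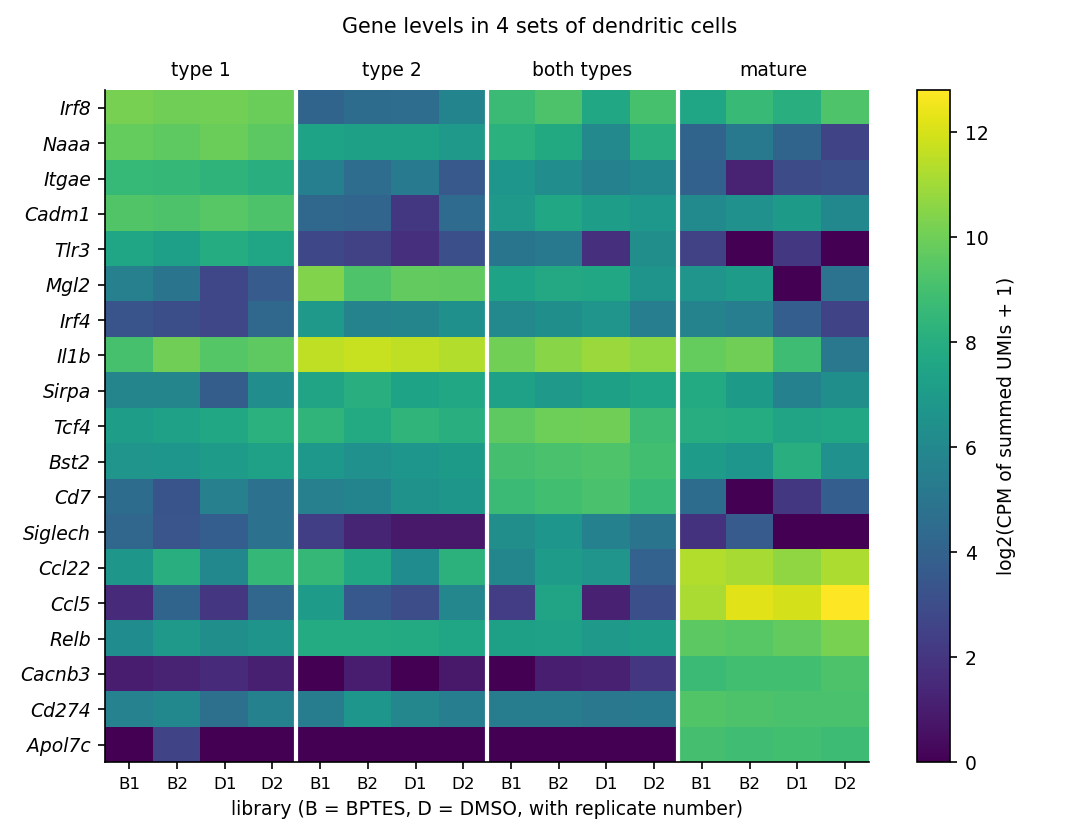
Levels of named genes (rows) in type 1, type 2, both-type and mature cells of each library (columns; B, BPTES; D, DMSO), as log2 of CPM plus 1 on a colour scale. Cadm1 and Itgae are bright in type 1 cells, and Mgl2 and Il1b in type 2 cells. Bst2 and Cd7 are bright in cells with genes of both types, and Cacnb3 and Apol7c in mature cells. Each holds in all 4 libraries.

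The 128 cells with genes of both types had leading genes of their own. Their median depths of 29802 to 33562 UMIs lay below the 38899 to 39839 of type 1 cells in each library. Among their leading genes were Cd7 (417, 482, 551 and 392 CPM, at most 110 in type 1, type 2 and mature cells) and Ly6c2 (315, 375, 261 and 205 CPM, at most 75.8 in those sets). Bst2 stood at 516, 563, 629 and 477 CPM, Bcl11a at 105 to 133 and Runx2 at 116 to 220, each the highest of the sets in every library. Tcf4, the lineage factor of plasmacytoid dendritic cells, stood at 784, 1011, 1054 and 441 CPM, against 144 to 292 in type 1 cells. Siglech, a marker of plasmacytoid cells, was at 80.5, 103, 49.2 and 29.3 CPM, and the other plasmacytoid genes Ly6d and Cox6a2 were at 0 to 51.5 and 0 to 9.03. The whole plasmacytoid list summed to 958 to 1768 CPM in this set and to 297 to 531 in types 1 and 2. Siglech had a UMI in 14 of 39, 22 of 49, 6 of 21 and 6 of 19 of these cells, so most held none. Whether a barcode held 2 cells was not tested.

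The first comparison asked whether BPTES and DMSO lungs differed in the frequency of dendritic cells among CD45-positive cells, for which kept barcodes with Ptprc were the denominator (5577, 6197, 5584 and 7896). Members made up 4% (95% Wilson interval 3.52 to 4.55) of these in BPTES 1 and 3.45% in BPTES 2, and 1.93% in DMSO 1 and 2.1% in DMSO 2. Both BPTES libraries were above both DMSO libraries: 3.73% ± 0.386 (SD, n = 2) against 2.02% ± 0.119 (SD, n = 2), a ratio of 1.85. A two-sided exact permutation test gave p = 0.333, the smallest value that 2 libraries against 2 can give. Intervals cover counting error only.

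Each of the 4 sets was higher in both BPTES libraries. Type 1 cells were 1.47% ± 0.205 of Ptprc-positive barcodes (SD, n = 2) in BPTES libraries, against 0.968% ± 0.279 (SD, n = 2) in DMSO libraries, a ratio of 1.52. The ratio was 1.89 for type 2 cells (0.966% ± 0.156 against 0.511% ± 0.113), 2.42 for cells with genes of both types and 2.56 for mature cells (0.378% ± 0.124 against 0.148% ± 0.00616). The groups did not overlap in any of these, and the exact permutation p was 0.333 for each, also after Benjamini-Hochberg adjustment over type 1, type 2 and mature cells. Without the marked members the ratio over all members was 1.81, and after thinning to 5000 UMIs it was 1.79, with 1952, 1875, 1949 and 2747 kept barcodes under that depth left out, of which 2, 1, 0 and 0 were members. Other cells differed as well: the B cell gate held 738 and 650 barcodes after BPTES, against 1367 and 1731 after DMSO. Interstitial macrophages numbered 163 and 210 after BPTES, against 75 and 116 after DMSO. Classical monocytes numbered 348 and 534 against 344 and 538, and T cells 1041 and 1315 against 845 and 1363. A higher count in both BPTES libraries was thus not particular to dendritic cells. With the B cell gate outside the denominator the ratio over all members was 1.61, still with no overlap. That of type 1 cells was then 1.33, with overlap. The sort fixed the number of CD45-positive cells, so the shares say nothing of cells per lung.

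Among the dendritic cells themselves, the shares of type 1 and type 2 cells overlapped between the treatments and that of mature cells did not. Type 1 cells were 39.3% ± 1.44 of BPTES members (SD, n = 2) and 47.6% ± 11 of DMSO members (SD, n = 2), and type 2 cells 25.8% ± 1.51 and 25.5% ± 7.12. Mature cells were 10% ± 2.3 and 7.32% ± 0.126 (exact permutation p = 0.333, two-sided). The DMSO libraries differed more from each other than the BPTES libraries in type 1 and type 2 cells.

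**Figure D2:**
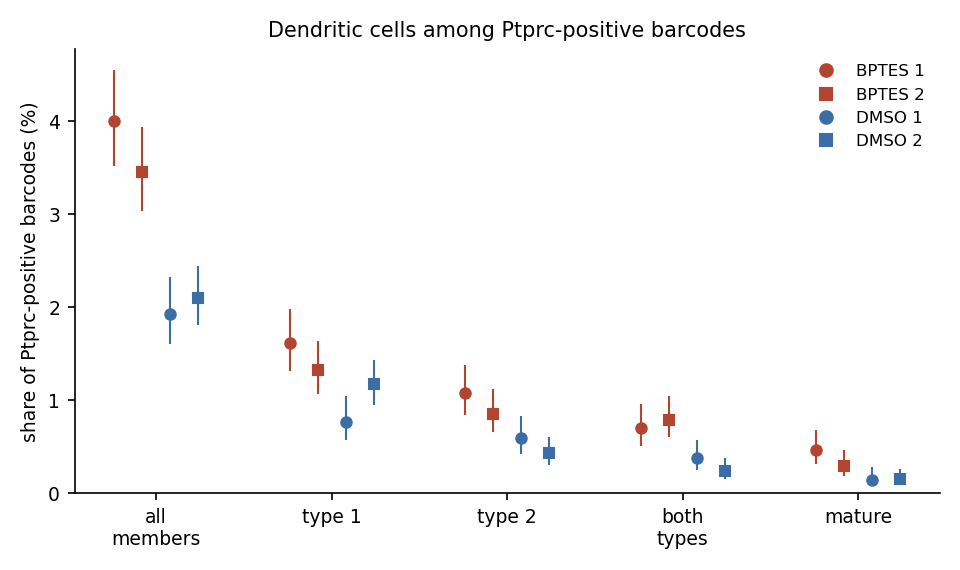
Share of Ptprc-positive barcodes (vertical axis, percent) that were members, and that fell in each set, in the 4 libraries; bars are 95% Wilson intervals, which cover counting error only. The BPTES libraries stand at 4% and 3.45% over all members and the DMSO libraries at 1.93% and 2.1%, and the BPTES points are the higher ones in every set.

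Expression was then compared on UMIs summed per library, with edgeR's quasi-likelihood test and Benjamini-Hochberg adjustment over all genes tested. A gene was called at an adjusted p under 0.05 in this edgeR test, and adjusted p-values are from it unless DESeq2 is named. Log2 fold changes are BPTES over DMSO with their standard errors. Such sums cannot tell a change in every cell from a change in a few.

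Over all members 2 of 12667 genes were called, 0.0158% of those tested, and both were surfactant genes that rose with BPTES. Sftpb, which encodes surfactant protein B of alveolar type 2 epithelium (ENSMUSG00000056370), stood at 62.8, 67.3, 2.18 and 3.91 CPM, a log2 fold change of 4.36 ± 0.22 (adjusted p = 0.0243). Sftpd, surfactant protein D (ENSMUSG00000021795), stood at 23.6, 26.2, 1.69 and 2.04 CPM, a change of 3.71 ± 0.23 (adjusted p = 0.0353). Sftpb had a UMI in 79 of 223 and 53 of 214 BPTES members, but 1 barcode held 37.4% of its UMIs in BPTES 1 and 1 barcode 81% in BPTES 2. The alveolar type 2 list of 6 genes summed to 1171 and 1085 CPM in BPTES members, against 70.7 and 144 CPM in DMSO members. Without the marked members the change of Sftpb was 1.48 (adjusted p = 0.79) and no gene of 11312 was called (646 had an unadjusted p under 0.05). Sftpb is itself one of the marking genes, so leaving the marked members out lowers it by construction. Without BPTES 1, and likewise without BPTES 2, no gene was called over all members. Sftpc, surfactant protein C, was also higher in BPTES libraries in cells that do not make it: 1359 and 953 against 256 and 762 CPM in the T cell gate, and 2217 and 3483 against 848 and 1325 CPM in the endothelial gate.

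The genes next in order did not pass. Sftpa1, Sftpc and Cxcl15, all of alveolar epithelium, had adjusted p-values of 0.0677, 0.086 and 0.0677, while DESeq2, which called 42 genes over all members, passed all 3. Hspa4l, a heat shock protein, stood at 37.9, 50.2, 17.2 and 18.5 CPM (log2 fold change 1.30 ± 0.18, adjusted p = 0.382), spread over 99, 128, 38 and 58 cells, and was at 1.16 without the marked members. Hspa4l was also higher in both BPTES libraries in the T cell gate (35.1, 44, 31.6 and 25.9 CPM) and in the endothelial gate (55.2, 77.3, 49.4 and 49.4 CPM). Fcgr3, a low-affinity Fc receptor, stood at 62.9, 64.4, 37 and 41.1 CPM (0.70 ± 0.11). On the lower side were Phlpp1, a phosphatase (594, 633, 838 and 830 CPM; -0.44 ± 0.09, adjusted p = 0.557), Lrrk2, a kinase (267, 278, 356 and 365 CPM; -0.41 ± 0.08), and Insig1, a brake on sterol synthesis (35.4, 34.7, 49.1 and 52.7 CPM; -0.54 ± 0.11). None of these 5 had groups that overlapped, and none was called by edgeR, while DESeq2 called Hspa4l (adjusted p = 0.00418) and Phlpp1 (adjusted p = 0.0188). St6galnac3, a sialyltransferase, had a value of -0.94 ± 0.19. Gsn, the actin-severing gelsolin, had -0.47 ± 0.09 (DESeq2 adjusted p = 0.0205) and 0.06 without the marked members.

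In type 1 cells 10 of 10966 genes were called, 0.0912% of those tested, and all 10 were higher with BPTES. They were Slc34a2, Sftpb, Cxcl15, Hc, Sftpa1, Sftpc, Sftpd, Chil1, Wfdc2 and Lamp3, most of them genes of alveolar type 2 or airway epithelium, with log2 fold changes of 4.29 to 5.59. Sftpc stood at 2049, 1741, 48.8 and 98.7 CPM (4.65 ± 0.31, adjusted p = 0.0138). It had a UMI in 90 of 90, 82 of 82, 35 of 43 and 89 of 92 cells, but 1 cell held 46.6% of its UMIs in BPTES 1 and 1 cell 92.9% in BPTES 2. Sftpb stood at 135, 139, 3.76 and 3.47 CPM (5.25 ± 0.20, adjusted p = 0.00133), with 41.3% and 94.2% of its UMIs in 1 cell of the BPTES libraries. Lamp3 is on the alveolar type 2 list and had no UMI in mature cells of DMSO 1 and DMSO 2. In type 1 cells it stood at 29.9, 27.8, 1.25 and 1.16 CPM (4.56 ± 0.33, adjusted p = 0.0184). In the BPTES libraries 28.9% and 90.7% of its UMIs were in 1 cell. Without the marked cells Sftpc stood at 154, 125, 51 and 99 CPM (0.85, adjusted p = 0.589) and no gene of 9750 was called (640 had an unadjusted p under 0.05). Of the 10 genes 4 were still tested there, and the other 6 did not pass the filter on low counts. Without BPTES 1, 8 genes were called, of which 4 were among the 10, and without BPTES 2, 7 genes, of which 6 were. Without DMSO 2 there were 37 calls, 9 of them among the 10.

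**Figure D3:**
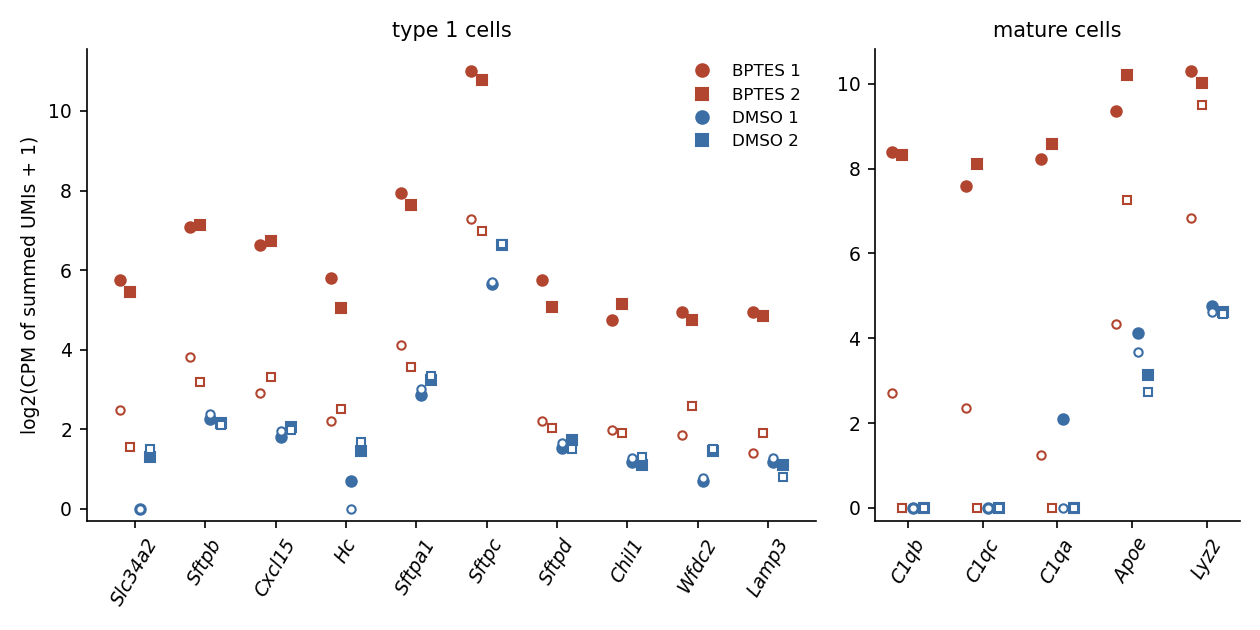
Genes called in type 1 cells (left) and in mature cells (right), as log2 of CPM plus 1 in each library; filled symbols are all cells of the set and open symbols are the cells left without those marked by another lineage. Sftpc of type 1 cells stands at 2049 and 1741 CPM in the BPTES libraries with all cells and at 154 and 125 CPM without the marked cells.

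In type 2 cells no gene of 9223 was called (0%), while 472 had an unadjusted p under 0.05 and DESeq2 called 3, among them Ear2 (adjusted p = 0.00595) and Ctsk (adjusted p = 0.0274). Without DMSO 1 the count was 253 and without DMSO 2 it was 89, each with a single DMSO library left. Ear2, an eosinophil-associated ribonuclease with near-identical copies that make its count uncertain, stood at 230, 195, 91.1 and 75.8 CPM (1.38 ± 0.20, adjusted p = 0.77). Without the marked cells Ear2 stood at 246, 153, 95.6 and 60.9 CPM. Ear2 is also on the alveolar macrophage list, which summed to 323, 749, 101 and 124 CPM in type 2 cells. The part of macrophage transcripts in Ear2 was not tested. Pmaip1, the BH3-only protein Noxa, stood at 248, 295, 147 and 155 CPM (0.88 ± 0.15) in nearly all type 2 cells (56 of 60, 50 of 53, 28 of 33 and 29 of 34). Hsph1, a heat shock protein, stood at 34.1, 63.2, 11.3 and 11.1 CPM (2.13 ± 0.38). It was also higher in both BPTES libraries in the T cell gate (63.3, 141, 26.7 and 37 CPM) and in the endothelial gate (26.5, 67.7, 12.5 and 17.7 CPM). Of 19 genes of dissociation stress tested in type 2 cells 4 were higher at an unadjusted p under 0.05, beside 3.13% of all genes. Tnfaip2, an NF-kappa-B target, stood at 189, 206, 106 and 80.9 CPM (1.10 ± 0.19). Ctsk, a cysteine protease, had 93.4% and 95.5% of its BPTES UMIs in 1 cell of each library. On the lower side Cd7 stood at 46.8, 53.8, 91.9 and 110 CPM (-0.97 ± 0.18) and Arhgap6, a GTPase-activating protein, at 97.4, 93.1, 186 and 166 CPM (-0.86 ± 0.17, and -0.40 without the marked cells). C1qtnf7, Bmp5 and Sox5, with values of -1.99 ± 0.26, -2.22 ± 0.35 and -1.88 ± 0.32, were seen in 1 to 9 cells per library. Each of these had groups that did not overlap and an adjusted p of 0.77. C1qtnf7 was left with 1, 1, 0 and 3 UMIs without the marked cells, Bmp5 with 3, 1, 1 and 1 and Sox5 with 1, 5, 4 and 1. All 3 then had groups that overlapped in CPM and did not pass the filter on low counts.

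The test of the difference between types asked whether the treatment difference of a gene differed between type 1 and type 2 cells. It called 1 of 10798 genes (0.00926%), Sftpc, whose BPTES difference in type 2 cells minus that in type 1 cells was -3.82 ± 0.17 on the log2 scale (adjusted p = 0.00173). Without the marked cells no gene was called (407 had an unadjusted p under 0.05), and the difference for Sftpc was -0.13 (adjusted p = 1).

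In cells with genes of both types no gene of 8758 was called (0%), while 444 had an unadjusted p under 0.05 and DESeq2 called 10, among them Il12b (adjusted p = 3.04e-05), Cxcl2 (adjusted p = 3.03e-06), Mt1 and Cbr2 (adjusted p = 0.000574 for each), and Ccl3 and Chsy3 (adjusted p = 0.00567 for each). Without BPTES 1 the count was 12 and without BPTES 2 it was 58. Il12b, the shared p40 chain of interleukins 12 and 23, held 192, 192, 0 and 2 UMIs (127, 108, 0 and 3.09 CPM; adjusted p = 0.229). The ratio of pooled UMIs per total was 85.4, with a counting interval of 23.5 to 707, but the UMIs came from 4 and 3 BPTES cells, of which 1 held 80.7% and 1 held 90.1%. Without the marked cells it was the single called gene of 7933 (adjusted p = 0.0154), at least 64-fold higher against a floor of 3 UMIs over both DMSO libraries. Ccl3, a chemokine, was spread wider, over 12, 14, 3 and 3 cells, at 58.1, 62.7, 4.92 and 7.71 CPM (3.28 ± 0.34, adjusted p = 0.229). Cxcl2, a neutrophil chemokine, stood at 376, 308, 89.8 and 110 CPM (1.79 ± 0.21) and at 0.76 without the marked cells. Cbr2, a carbonyl reductase of airway cells, had 88.5% and 91.1% of its BPTES UMIs in 1 cell of each library, and Chsy3, a chondroitin synthase, held 84, 110, 0 and 2 UMIs. Mt1, a metallothionein, was on the lower side at 135, 210, 432 and 514 CPM (-1.44 ± 0.24, adjusted p = 0.602), as were Cfp, properdin of the complement system (164, 172, 292 and 267 CPM), and Emp1 (151, 172, 274 and 256 CPM). Sgcd and Igfbp5 lay in 1 to 4 cells per library. Siglech had a log2 fold change of 1.22 ± 0.29 (adjusted p = 0.882).

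Mature cells numbered only 8 in DMSO 1, under the minimum of 10 cells set for a fit, so their fit was added later. Every value rests on 8 to 26 cells per library, or on 20, 15, 7 and 11 without the marked cells. The fit of all mature cells called 5 of 6121 genes, 0.0817% of those tested, all higher with BPTES and all strongly expressed by macrophages. Without DMSO 1 the count was 230 and without DMSO 2 it was 93, while without BPTES 1 it was 2 and without BPTES 2 it was 9. Lyz2, lysozyme of myeloid cells, stood at 1258, 1029, 26.1 and 23.5 CPM (5.45 ± 0.28, adjusted p = 0.00254) in 23, 16, 5 and 6 cells. Apoe, the lipid carrier, stood at 657, 1180, 16.3 and 7.82 CPM (6.20 ± 0.51, adjusted p = 0.012), with 58.5% and 90.4% of its BPTES UMIs in 1 cell. The complement genes C1qb (372, 220, 0 and 0 UMIs) and C1qc (209, 189, 0 and 0 UMIs) were at least 76-fold and at least 51.1-fold higher against a floor of 3 UMIs over both DMSO libraries (adjusted p = 0.012 and 0.0399). C1qa held 326, 265, 1 and 0 UMIs (adjusted p = 0.012), a pooled ratio of 227 with a counting interval of 40.7 to 9000. In BPTES 2 all UMIs of the 3 complement genes came from 1 cell. The interstitial macrophage list summed to 1657 and 2430 CPM in BPTES mature cells, against 22.9 and 7.82 CPM in DMSO mature cells, and Folr2 was at 0 in all 4. Without the marked cells Lyz2, the only one of the 5 still tested, had a log2 fold change of 4.11 (adjusted p = 0.3) and was not called. Apoe then stood at 19.2, 152, 11.7 and 5.69 CPM, and it and the complement genes did not pass the filter on low counts. The complement genes are among the marking genes.

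The same fit without the marked cells called 1 gene of 5123, Isg15, a ubiquitin-like protein induced by interferon. In all mature cells Isg15 stood at 30.8, 10.1, 183 and 175 CPM, a log2 fold change of -3.11 ± 0.46 (edgeR adjusted p = 0.102, DESeq2 adjusted p = 0.000115), with both BPTES libraries below both DMSO libraries. Without the marked cells it fell by 4.60 on the log2 scale (adjusted p = 0.00567), on 5, 5, 51 and 66 UMIs. The DMSO level rested on few cells: Isg15 had a UMI in 4 of 8 and 5 of 12 cells there, and 1 cell held 67.9% and 64.2% of the UMIs. Over all members Isg15 stood at 26.8, 20.2, 48.4 and 36.2 CPM (-0.84 ± 0.23, adjusted p = 0.704), and the value was -1.40 without the marked members (adjusted p = 0.583). In the T cell gate Isg15 stood at 22.3, 20.7, 44.5 and 30.3 CPM, with no overlap, and in the endothelial gate at 93.7, 64.7, 85.8 and 83.5 CPM, with overlap.

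Of the 39 genes of the interferon response list, 17 were tested in mature cells: 14 had negative and 3 positive log2 fold changes, 5 lower and 1 higher at an unadjusted p under 0.05, with a median of -0.53 beside 0.01 over all genes. Among all genes tested in mature cells, 4.3% were lower and 6.78% higher at that level. Over all members 25 of 39 were negative, 5 were lower and 2 higher at an unadjusted p under 0.05, beside 2.07% lower and 3.96% higher of all genes in that fit, and the median was -0.09. Oasl1, an antiviral protein, stood at 7.83, 5.72, 25.6 and 14.4 CPM over all members (-1.55 ± 0.36, adjusted p = 0.636) and Irf7, the master regulator of type I interferon, at 28.6, 24.6, 65.6 and 38.4 CPM (-0.96 ± 0.28, adjusted p = 0.745). None of the list was called over all members.

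The MHC class I list, which takes in heavy chains, the peptide transporter and its partners, showed a like pattern in mature cells. Of 18 genes tested 14 were negative, 8 were lower and 1 higher at an unadjusted p under 0.05, with a median of -0.56, beside the 4.3% lower and 6.78% higher of all genes tested there, and none was called. Without the marked cells 15 of 18 were negative and the median was -0.57. B2m, the light chain of all class I molecules, stood at 3399, 3875, 5097 and 5126 CPM (-0.56 ± 0.16, adjusted p = 0.299). H2-K1 stood at 1426, 1692, 2292 and 2499 CPM (-0.69 ± 0.19), and H2-D1 had -0.59 ± 0.17. Tapbp, which loads peptide on class I, stood at 212, 260, 477 and 396 CPM (-0.96 ± 0.24, adjusted p = 0.247), and Tap1, a transporter subunit, at 92.5, 145, 229 and 206 CPM (-0.95 ± 0.31). The BPTES libraries were below the DMSO libraries in each of these 5 genes, which were chosen from the list after their values were seen. The share of all genes with groups apart in this way is not given. The class I list was also mostly negative in type 1 cells (13 of 18, median -0.07) and type 2 cells (14 of 18, median -0.16). The medians over all genes there were -0.01 and 0.00. At an unadjusted p under 0.05, 0 were lower in type 1 cells and 2 in type 2 cells, with 0 higher in each. Of all genes 2.12% and 1.98% were lower at that level. In cells with genes of both types 7 of 18 were negative, with a median of 0.01. Whether the shift was particular to mature cells was not tested. Of 11 MHC class II genes tested in mature cells 8 were positive, with H2-Ab1 at 0.28 ± 0.18 (adjusted p = 0.659). At an unadjusted p under 0.05, 1 was higher and 0 lower, beside 6.78% higher and 4.3% lower of all genes. The difference between the class I and class II lists was not tested.

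The promoter letters of Isg15 and B2m are shown because these members of the interferon and class I lists are described above in mature cells and both hold the element searched. The core of the interferon-stimulated response element, searched as GAAANNGAAA on both strands from 250 bases before to 50 after each start site (RefSeq, build GRCm38.p6), occurred in 3.44% of 32851 promoters. It occurred in a promoter of 17 of the 29 interferon-list genes searched (58.6%) and of 2 of 15 genes of the class I list (13.3%). These list counts are per gene, with a match in any promoter of the gene, while the share over all is per promoter. Capitals mark the matches, which in Isg15 are 3 and overlap. The Isg15 window lies at chr4:156200871-156200900 on the minus strand, 82 to 53 bases before the start site, and the B2m window at chr2:122147538-122147567 on the plus strand, 149 to 120 bases before it.
Isg15: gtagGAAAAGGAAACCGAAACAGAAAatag
B2m: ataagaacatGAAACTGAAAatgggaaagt
A match describes the letters of the window and not the binding of a factor.

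Other genes of mature cells were given by their lists. Of 39 genes of the mature programme tested there, 26 were negative and 13 positive, 7 lower and 4 higher at an unadjusted p under 0.05, with a median of -0.35, and none was called. The 4 higher of 39 are near the 6.78% of all genes tested there, of which 4.3% were lower. Socs2, a brake on cytokine signalling, stood at 301, 289, 379 and 485 CPM (-0.63 ± 0.24, adjusted p = 0.396) and Relb had -0.55 ± 0.23. Cd86, the co-stimulatory ligand of CD28, stood at 1294, 1332, 787 and 610 CPM (0.84 ± 0.20, adjusted p = 0.247) and Ccl17, a T cell chemokine, at 1228, 1606, 101 and 618 CPM (1.87 ± 0.69, adjusted p = 0.386). The value of Ccl17 in mature cells was 1.09 without DMSO 1 (adjusted p = 0.0675) and 3.76 without DMSO 2 (adjusted p = 0.00179). Of 19 genes of the type 2 programme 16 were positive, 12 higher at an unadjusted p under 0.05 (6.78% of all genes), with a median of 1.66. Csf1r among them held 124, 62, 1 and 0 UMIs (edgeR adjusted p = 0.0603, DESeq2 adjusted p = 0.0199). Cd14 had 3.22 ± 0.51 (edgeR adjusted p = 0.126, DESeq2 adjusted p = 0.00102) and 1.15 without the marked cells. Without them 8 of 12 of that list were positive. These genes moved with the macrophage list given above, and its part in them was not tested.

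**Figure D4:**
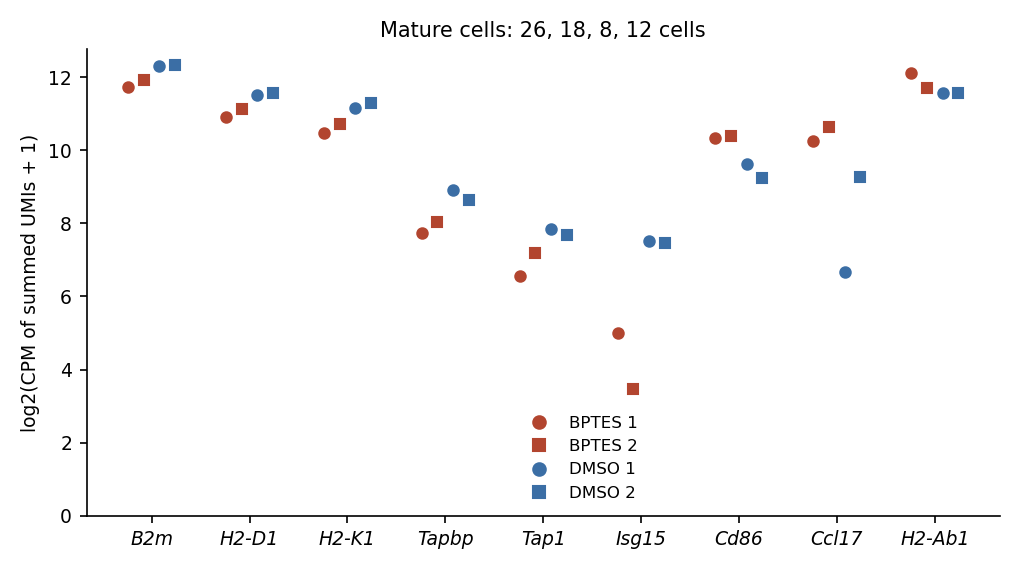
Levels of class I, interferon, co-stimulation, chemokine and class II genes in mature cells (26, 18, 8 and 12 cells), as log2 of CPM plus 1 in each library. The DMSO libraries are higher for B2m, H2-D1, H2-K1, Tapbp, Tap1 and Isg15, and the BPTES libraries are higher for Cd86, Ccl17 and H2-Ab1. With all cells in the fit edgeR called none of these, while DESeq2 called Isg15.

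The senescence and cell cycle list had the widest shift over all members. It holds genes of cell division together with senescence genes such as Cdkn1a and Cdkn2a. Of 22 genes of senescence and the cell cycle, 17 were positive and 5 negative, 10 higher and none lower at an unadjusted p under 0.05, with a median of 0.58 beside -0.01 over all genes. Among all genes tested 3.96% were higher and 2.07% lower at that level. None of the list was called by edgeR (smallest adjusted p = 0.492). Without the marked members 9 of 22 were higher at that level and the median was 0.44. Top2a, the topoisomerase of dividing cells, stood at 104, 61.7, 28.1 and 20.4 CPM (1.79 ± 0.31, edgeR adjusted p = 0.492), and DESeq2 called it (adjusted p = 3.52e-05). In the T cell gate Top2a was lower in both BPTES libraries (37.3, 51.2, 58.9 and 54.4 CPM) and in the endothelial gate higher (8.58, 8.5, 4.21 and 3.99 CPM). Ube2c, which drives exit from mitosis, stood at 26.4, 14, 9.92 and 4.59 CPM (1.51 ± 0.48), and Stmn1, a microtubule regulator, at 120, 72.1, 53.7 and 40.4 CPM (1.03 ± 0.29). Ccna2 and Ccnb1, cyclins of the later cycle, had 2.08 ± 0.64 and 1.80 ± 0.45, and Tyms, thymidylate synthase, 1.00 ± 0.29. Both BPTES libraries were above both DMSO libraries in each of these 6 genes, which were chosen from the list after their values were seen. How many of all genes had groups apart in this way is not given. Mki67, the proliferation marker, was closer, at 154, 124, 110 and 65.6 CPM (0.66 ± 0.27, adjusted p = 0.829), as was the replication clamp Pcna (0.37 ± 0.12). Cdkn1a, the p21 inhibitor of the cycle used as a senescence marker, stood at 343, 379, 312 and 275 CPM (0.29 ± 0.12, adjusted p = 0.828).

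The list had positive medians in both types. In type 1 cells the list had a median of 0.60, with 15 of 18 positive and 4 higher at an unadjusted p under 0.05, beside 3.21% higher and 2.12% lower of all genes tested there. Top2a in type 1 cells stood at 138, 49.2, 15.7 and 28.4 CPM (2.03 ± 0.52, edgeR adjusted p = 0.744, DESeq2 adjusted p = 0.0288). In type 2 cells the median was 0.60, with 16 of 19 positive and 3 higher at that level, beside 3.13% higher and 1.98% lower of all genes. Top2a in type 2 cells stood at 122, 123, 51.6 and 0.852 CPM (2.22 ± 0.87, adjusted p = 0.941). The last of these is 1 UMI, and the value was 1.23 without DMSO 2 (adjusted p = 0.0356) and 7.14 without DMSO 1 (adjusted p = 4.28e-12). In cells with genes of both types the median was 0.12 over 14 genes, 1 higher and 1 lower at that level, beside 3.24% and 1.83% of all genes.

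The number of cells with mitosis transcripts was compared next. A cell was counted when at least 2 of 6 mitosis genes (Mki67, Top2a, Ube2c, Birc5, Ccna2, Ccnb1) had a UMI. This was so in 67 of 223 members (30%) of BPTES 1, 41 of 214 (19.2%) of BPTES 2, 30 of 108 (27.8%) of DMSO 1 and 27 of 166 (16.3%) of DMSO 2, with overlap between the groups. After thinning to 10000 UMIs the shares were 17.4%, 10.4%, 14% and 5.73%, again with overlap. In type 2 cells they ranged from 17% in BPTES 2 to 55% in BPTES 1, and in type 1 cells from 18.5% to 25.6%. The endothelial gate gave 0.243% to 0.59% and T cells 4.61% to 4.99%, at lower median depths. The library numbered 1 was the higher of each group over all members and in type 1, type 2 and mature cells. It was the lower in the T cell and endothelial gates, and in BPTES cells with genes of both types.

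Promoter windows of Mki67 and Ube2c are shown because both genes are counted above and belong to the list with the widest shift over all members. The CHR element of cell cycle promoters, searched as TTTGAA on both strands of the same promoters, occurred in 17.9% of all promoters. Counted per gene, with a match in any promoter, it occurred in 6 of 18 genes of the list (33.3%). Capitals mark the matches, and TTCAAA is the element on the other strand. The Mki67 window lies at chr7:135716469-135716498 on the minus strand, 119 to 90 bases before the start site, and the Ube2c window at chr2:164769888-164769917 on the plus strand, 41 to 12 bases before it.
Mki67: gaaTTTGAAccgccgttttggTTTGAAtcg
Ube2c: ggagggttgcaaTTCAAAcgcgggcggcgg
A motif of 6 letters occurs often by its shortness, as the share over all promoters shows.

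**Figure D5:**
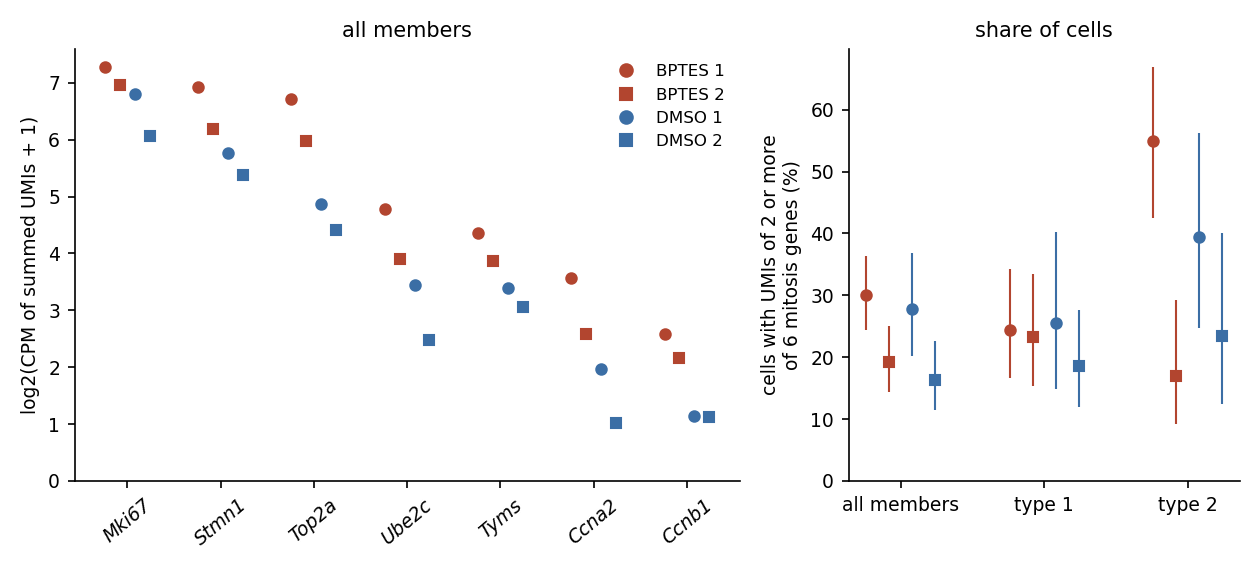
Left, levels of 7 cell cycle genes over all members as log2 of CPM plus 1 in each library; right, percent of cells with UMIs of at least 2 of 6 mitosis genes, with 95% Wilson intervals for counting error. The BPTES points lie above the DMSO points for each gene on the left, while on the right the groups overlap (30% and 19.2% against 27.8% and 16.3% over all members).

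Over all members cytokine and co-stimulation genes had smaller shifts than the senescence and cell cycle list. In cells with genes of both types the cytokine list had a median of 0.62, with 16 of 19 positive. There 7 were higher at an unadjusted p under 0.05, beside 3.24% of all genes. In type 2 cells its median was 0.53, with 17 of 21 positive and 4 higher at that level, beside 3.13% of all genes. In type 1 cells the median was 0.14. Of 25 cytokine and chemokine genes tested over all members, 19 were positive and 7 higher at an unadjusted p under 0.05 (3.96% of all genes), with a median of 0.34, and 3 of 24 were higher without the marked members, with a median of 0.18. Ccl17 stood at 745, 627, 200 and 499 CPM over all members (0.98 ± 0.38, adjusted p = 0.827) and Ccl17 in type 2 cells at 1425, 852, 259 and 674 CPM (1.35 ± 0.44, adjusted p = 0.941). There DMSO 2 lay nearer to BPTES 2 than to DMSO 1, and the value was 0.85 without DMSO 1 (adjusted p = 0.0237), 2.13 without DMSO 2 (adjusted p = 0.000339) and 1.74 without the marked cells (adjusted p = 0.717). Of 15 co-stimulation and co-inhibition genes 10 were positive, with a median of 0.18. Cd274 stood at 118, 112, 79.1 and 81.6 CPM over all members (0.52 ± 0.10, adjusted p = 0.55) and Pdcd1lg2, the second ligand of PD-1, at 25.3, 16.8, 9.44 and 9.35 CPM (1.17 ± 0.26, adjusted p = 0.597, and 0.77 without the marked members). Both genes were highest in mature cells, which were 10% of BPTES and 7.32% of DMSO members, and the part of that share in the values was not tested. In type 1 cells Cxcl9, a chemokine induced by interferon gamma, stood at 92.5, 30.9, 18.2 and 10.1 CPM (2.19 ± 0.60, adjusted p = 0.802), with 92.1% of its BPTES 1 UMIs in 1 cell. In type 2 cells Il1b had 0.26 ± 0.14 (adjusted p = 0.98).

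Genes of glutamine use are listed because the compound acts on that pathway. Of 28 genes of the list tested, 17 were positive and 11 negative, 5 higher at an unadjusted p under 0.05, with a median of 0.07, and none was called by edgeR. Over all genes 3.96% were higher at that p. With the marked members left out 14 of 27 were positive and 13 negative, 2 higher and 1 lower at an unadjusted p under 0.05, with a median of 0.00. Glul, glutamine synthetase, had 0.24 ± 0.18 and Slc1a5, a glutamine transporter, -0.17 ± 0.14, with overlap between the groups in both. Slc7a11, which imports cystine in exchange for glutamate, stood at 70.1, 43, 23.2 and 23.3 CPM (1.29 ± 0.26, edgeR adjusted p = 0.557, DESeq2 adjusted p = 0.0161) and had 0.59 without the marked members. In type 1 cells its value turned from 2.08 ± 0.51 to -0.51 without them. Slc7a11 in type 2 cells was at 32.5, 34.4, 1.61 and 13.6 CPM (2.18 ± 0.64, adjusted p = 0.941), and 2.00 without the marked cells. The DMSO levels there are 2 and 16 UMIs, and the value was 1.37 without DMSO 1 (adjusted p = 0.0771) and 4.30 without DMSO 2 (adjusted p = 0.00159). Gclm, a subunit of the enzyme that starts glutathione synthesis, had 0.46 ± 0.16 (adjusted p = 0.799).

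Identity and stress genes had medians near 0 over all members. The medians were 0.03 for 23 growth factor receptors and transcription factors, -0.10 for 18 genes of the type 1 programme, 0.05 for 21 of the type 2 programme, -0.07 for 11 of MHC class II, -0.11 for 18 of MHC class I, -0.01 for 19 chemokine receptors and migration genes and 0.02 for 22 pattern recognition genes. They were 0.05 for 22 genes of amino acid stress through ATF4, -0.01 for 26 of mTORC1, glycolysis and oxidative metabolism and 0.06 for 19 of dissociation stress. None of these lists held a called gene. Of the 18 class I genes 16 were negative, 3 lower and 0 higher at an unadjusted p under 0.05, next to 2.07% lower among all genes. Without the marked members 4 were lower, with a median of -0.15. Whether this shift of class I genes was particular to dendritic cells was not tested. The mature programme had a median of 0.13 over 39 genes, with 8 higher at an unadjusted p under 0.05 (3.96% of all genes) and 3 without the marked members. Tlr3, which stood at 86.7, 70.2, 96.1 and 122 CPM over all members (-0.47 ± 0.16, adjusted p = 0.794), came mostly from type 1 cells. The share of type 1 cells among members, given above, overlapped between the treatments. Within type 1 cells the Tlr3 levels given above were also lower in both BPTES libraries, and Tlr3 was not called there. H2-Ab1 had -0.07 ± 0.16 (adjusted p = 0.96). Fewer cells of a set and less RNA per cell cannot be told apart in these sums over all members.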

How the data were processed

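Filtered 10x matrices of 31054 features were used as deposited. They hold UMI counts per gene and barcode that the authors made with Cell Ranger 8.0.1 on mm10, per the submitters' processing notes. Other steps before deposit are not given in the sources used here. Members and gene lists were chosen with earlier results of these data known. Counts were summed per library and set, filtered with filterByExpr, scaled by TMM and tested with edgeR 4.0.16 (quasi-likelihood test, Benjamini-Hochberg adjustment, R 4.3.3), with DESeq2 1.42.0 as an alternative. Fits were tested on simulated data, but which sets this covered and its outcome are not given here. No conclusion on the called genes is drawn from that test. CPM is UMIs per 1000000 of the summed cells, unscaled. Shares were compared by exact permutation, with Wilson intervals at 95%. Named genes were the called genes with the largest changes (at most 10 per direction, mean of at least 20 CPM), called genes of the lists, the 5 with the smallest p per direction where fewer than 5 were called, and list genes chosen after their values were seen. Mature cells, fewer than 10 in 1 library, and cells with genes of both types were fitted as additions after the cells had been counted. Marked cells and the B cell denominator were likewise defined after seeing the data. Alternatives covered normalisation, count filter, test, mitochondrial limit, assignment to sets, replicate block and each library left out. All columns were mapped to a sample. Some single genes are not reported here.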

Additional observations from a re-analysis of the deposited data

Results flagged for a closer look

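The difference between BPTES and DMSO libraries for Sftpc, surfactant protein C, was not the same in both types of dendritic cell by a test of the difference itself. The value in type 2 cells minus that in type 1 cells was -3.82 on the log2 scale (edgeR quasi-likelihood test, adjusted p = 0.00173). In type 1 cells Sftpc stood at 2049 and 1741 CPM in the BPTES libraries and at 48.8 and 98.7 in the DMSO libraries, and 1 type 1 cell held 92.9% of its UMIs in BPTES 2. Without the cells marked by another lineage the difference was -0.13 (adjusted p = 1). The alveolar type 2 list summed to 2531, 2192, 101 and 135 CPM in type 1 cells and to 176, 158, 59.6 and 115 CPM in type 2 cells. The part of that list in the difference was not tested.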

How the results depend on the processing

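Counts of called genes depended on the fit, here in the order all members, type 1, type 2, both types and mature (2, 10, 0, 0 and 5 by the edgeR test). DESeq2 called 42, 26, 3, 10 and 49. With no filter on low counts the numbers were 65, 316, 0, 263 and 347, and 38 for the difference between types. Assigning cells to more than 1 set gave 5 in type 1 cells. Without the marked members they were 0, 0, 0, 1 and 1, and 0 for the difference between types. A replicate block gave 5, 16, 0, 0 and 5. Same-numbered libraries share only a number: their deviations correlated at 0.192, 0.0745, 0.127, -0.149 and 0.0161. A crossed pairing in cells with genes of both types gave 0 calls.

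Leaving out 1 library gave 0 to 12 calls over all members, 7 to 37 in type 1 cells, 0 to 253 in type 2 cells, 0 to 58 in cells with genes of both types and 2 to 230 in mature cells. The lone library of a group was then assumed to vary like the others. The shares of dendritic cells kept their direction except with Flt3 or Zbtb46 sufficing (0.936 for type 1 cells) and with the longer marker lists of other lineages, which left 11 members (0.938 for all, 0.557 for type 1 and 0 for both types). No fit was run on those 11. Of 1076 refits of 103 gene values, 941 kept their direction and their side of the threshold. A call was lost in 35 and gained in 96, and the sign changed in 4. Refits in which the gene did not pass the filter on low counts are not in this tally. Without the marked cells 4 of the 10 calls in type 1 cells and 1 of the 5 in mature cells were still tested. Without the marked members Gsn over all members went to 0.06 and Slc7a11 in type 1 cells to -0.51. With 1 library left out H2-Ab1 over all members ranged from -0.23 to 0.07 (0.02 without DMSO 1). The cause was not tested. The mature values rest on 8 to 26 cells per library, or 7 to 20 without the marked cells, and 2 libraries a group.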
